A study of Mus musculus with 4 samples.

Results

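Choroid plexus epithelial genes were followed through the cerebella of adult mice with a heterozygous knockout of Arid1b, the gene of a subunit of the BAF chromatin remodelling complex. The 10 genes, Ttr, Enpp2, Kl, Folr1, Kcnj13, Kcne2, Aqp1, Slc4a5, Clic6 and Otx2, were chosen by symbol as secretory and transport genes of this epithelium (with the transcription factor Otx2), and all 10 were found among the 24015 genes of the count table. The libraries came from heterozygous Arid1b knockout mice (labelled HT) and from their wild type littermates (labelled WT), with 1 male and 1 female of each genotype, all of the C57BL/6N strain and 140 to 150 days old. The cerebellum was dissected from each, and messenger RNA was sequenced in 1 shared lane. The mutant allele is not described in the labels. Each combination of genotype and sex has 1 library, so p-values rest on the spread left between the libraries after genotype and sex. That spread is taken from the gene itself (1 residual degree of freedom) and from the other tested genes (median prior degrees of freedom 10.6). In that spread, animal differences, technical differences and a genotype effect that differs by sex cannot be told apart.

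The choroid plexus is a fringe of secretory epithelium in the brain ventricles. The fourth ventricle, which lies under the cerebellum, holds a piece of it that can come away with a dissected cerebellum. Its cells make the cerebrospinal fluid by moving ions, bicarbonate and water, they load the fluid with carrier proteins and vitamins, and they form the barrier between blood and fluid. In a bulk library, fewer cells of a type and less RNA per cell cannot be told apart.

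Total counts lay between 15950899 and 20616219 per library, and 15117 genes passed the low-count filter, all 10 choroid plexus genes among them. Arid1b itself had 52.9 and 55.8 CPM (counts per 1e6 counts of the library) in the male and female HT, against 69.9 and 71.0 CPM in the male and female WT (log2 fold change -0.37 ± 0.11, SE, edgeR quasi-likelihood test, adjusted p = 0.243). The male HT library stood apart from the other libraries in the choroid plexus genes, and the female WT library stood apart in markers of brainstem and midbrain neurons, which summed to 243 and 220 CPM in the male and female HT, against 169 and 86.0 CPM in the male and female WT. Results are therefore given with and without the male HT library. The fits that leave a library out have genotype as their only term, so sex is unbalanced in them.

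The choroid plexus genes were most abundant in 1 library, the male HT. Together they held 2699 CPM there and 1557 CPM in the female HT, against 1476 CPM in the male WT and 1468 CPM in the female WT. The other libraries thus lay within a narrow band, with the female HT highest of them. Of the 10 genes, 9 had their highest level in the male HT, where 25.7% of all tested genes did. The exception was Otx2, highest in the male WT. No gene passed the genotype test over all genes, in which 3 of 15117 genes (0.0198%) were called (edgeR quasi-likelihood test with sex and genotype as terms, Benjamini-Hochberg adjusted p under 0.05). At an unadjusted p under 0.05, 4 of the 10 were higher in the HT, against 5.22% of all tested genes. DESeq2 called 0 of the 5 members to which it gave an adjusted p, where it called 0.317% of all such genes.

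**Figure D1:**
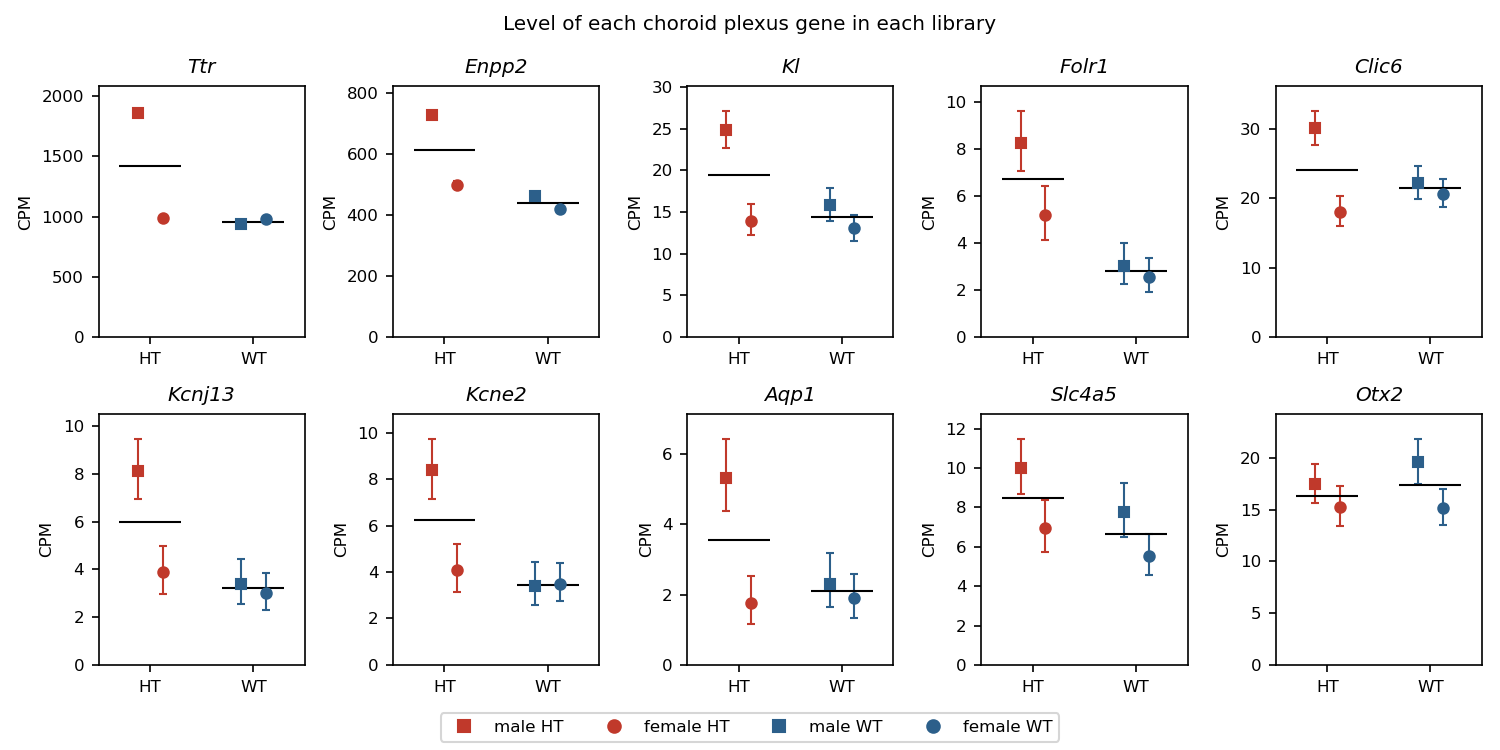
CPM (y axis from 0) of each choroid plexus gene in the HT libraries (left, red) and WT libraries (right, blue), with squares for males and circles for females; bars on points are exact 95% Poisson intervals for counting error, and black lines are the means of 2 libraries. In every panel but Otx2 the male HT point is the highest, and the female HT point lies clear of both WT points for Folr1 and Enpp2 by counting error.

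Ttr and Enpp2, which encode secreted proteins, had the highest CPM of the 10 genes. Ttr, transthyretin, the carrier of thyroid hormone and of retinol-binding protein in the cerebrospinal fluid, had 1857 CPM in the male HT and 988 CPM in the female HT, against 936 and 983 CPM in the male and female WT. The male HT was nearly doubled over the others, while the female HT exceeded the higher WT by less than its counting interval (972.8 to 1004 CPM). The genotype term gave Ttr a log2 fold change of 0.50 ± 0.29 (SE, adjusted p = 0.632 in edgeR), which was 0.05 without the male HT library. Ttr alone made up 68.8% and 63.5% of the counts of the 10 genes in the male and female HT, against 63.4% and 67.0% in the male and female WT.

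Enpp2 encodes autotaxin, a secreted enzyme that makes lysophosphatidic acid, and oligodendrocytes express it as well as the choroid plexus. It stood at 730 CPM in the male HT and 499.8 CPM in the female HT, against 462 CPM in the male WT and 419 CPM in the female WT, so that the genotypes did not overlap. Its log2 fold change was 0.46 ± 0.12 (SE, adjusted p = 0.204 in edgeR), and 0.18 without the male HT. Of 12 oligodendrocyte markers 11 had a positive log2 fold change (51.1% of all tested genes), with a median of 0.14. They summed to 15534 and 14610 CPM in the male and female HT, against 13378 and 14108 CPM in the male and female WT, and no marker was at 0. Trf, transferrin, and Opalin, a myelin protein, had log2 fold changes of 0.23 ± 0.10 and 0.29 ± 0.13 (SE, adjusted p = 0.412 and 0.422 in edgeR). The part of oligodendrocytes in the Enpp2 values was not tested.

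Kl encodes klotho, a membrane and shed protein that acts as a co-receptor for fibroblast growth factor 23. It had 24.8 CPM in the male HT and 13.98 CPM in the female HT, against 15.8 and 13.05 CPM in the male and female WT. The female HT lay between the WT libraries, and the log2 fold change was 0.39 ± 0.18 (SE, adjusted p = 0.450 in edgeR). It was -0.04 without the male HT and 0.58 without the male WT.

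Folr1, the folate receptor that carries folate across the epithelium, differed most between the genotypes. It had 8.28 CPM in the male HT and 5.20 CPM in the female HT, against 3.04 CPM in the male WT and 2.57 CPM in the female WT. Both HT libraries were above both WT libraries, and the mean was 6.74 ± 2.18 CPM in the HT and 2.80 ± 0.331 CPM in the WT (SD, n = 2 each). The log2 fold change of 1.24 ± 0.28 (SE) was the largest of the 10 genes but did not pass over all genes (adjusted p = 0.156 in edgeR). With edgeR it was 0.90 without the male HT (adjusted p = 1) and 1.555 without the female HT (adjusted p = 0.673). It was 1.40 without the male WT (adjusted p = 4.69e-05) and 1.16 without the female WT (adjusted p = 0.00524), in edgeR fits that called 2730 and 658 genes in all. The counts behind it were 168 and 83 in the male and female HT, against 50 and 53 in the male and female WT.

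Kcnj13, an inwardly rectifying potassium channel (Kir7.1) of the apical membrane, had 8.13 CPM in the male HT and 3.89 CPM in the female HT, against 3.40 and 3.01 CPM in the male and female WT. Kcne2, a small subunit that assembles with potassium channels such as Kcnq1, had 8.38 and 4.08 CPM in the male and female HT, against 3.40 and 3.49 CPM in the male and female WT. For both channels the genotypes did not overlap, but the female HT lay close above the WT libraries. Their log2 fold changes were 0.83 ± 0.30 (SE, adjusted p = 0.326 in edgeR) for Kcnj13 and 0.78 ± 0.31 (SE, adjusted p = 0.372 in edgeR) for Kcne2. Without the male HT these were 0.28 and 0.24 (adjusted p = 1 for each in edgeR), and without the female HT 1.335 and 1.27 (adjusted p = 0.813 for each in edgeR). Without the male WT they were 1.015 and 0.85 (adjusted p = 0.00548 and 0.0201 in edgeR), in a fit that called 2730 of 15599 genes. Without the female WT they were 0.83 and 0.89 (adjusted p = 0.0793 and 0.0545 in edgeR). Kcnj13 lies within Gigyf2, on the opposite strand. No exon is shared in the GENCODE annotation. Gigyf2 had 66.8 and 69.3 CPM in the male and female HT, against 80.9 and 70.5 CPM in the male and female WT.

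Aqp1, the water channel of the apical membrane, which red blood cells also carry, had 5.32 CPM in the male HT and 1.76 CPM in the female HT, against 2.31 and 1.89 CPM in the male and female WT. The male HT was the highest and the female HT the lowest of the libraries. Its log2 fold change was 0.61 ± 0.39 (SE, adjusted p = 0.589 in edgeR) and -0.25 without the male HT. Alas2, which starts haem synthesis in erythroid cells, had 9.76 and 5.71 CPM in the male and female HT, against 29.2 and 11.8 CPM in the male and female WT. The log2 fold change of Alas2 was -1.33 ± 0.20 (SE, adjusted p = 0.0710 in edgeR and 0.0278 in DESeq2). Slc4a1, the anion exchanger of red cells, stood at 0.937 and 0.940 CPM in the HT male and female, against 3.28 and 1.02 CPM in the WT male and female. Only these 2 of the 9 listed red cell markers passed the low-count filter, and the 6 haemoglobin genes had 0 counts in every library. Why the haemoglobin genes had no counts was not tested, and the sum of the list holds none of their RNA. The listed red cell markers summed to 10.8 and 6.71 CPM in the male and female HT, against 32.8 and 12.9 CPM in the male and female WT. Their part in the Aqp1 values was not tested.

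Slc4a5, a sodium bicarbonate cotransporter, had 10.01 CPM in the male HT and 6.96 CPM in the female HT, against 7.78 and 5.53 CPM in the male and female WT. Here the HT was above the WT of its own sex by a similar ratio, 1.29 in males and 1.26 in females. The genotypes overlapped, and the log2 fold change was 0.35 ± 0.23 (SE, adjusted p = 0.595 in edgeR). In fits with no sex term it was 0.07 without the male HT and 0.13 without the female WT, but 0.58 without the female HT and 0.63 without the male WT.

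Clic6, a member of the chloride intracellular channel family, had 30.1 CPM in the male HT and 18.1 CPM in the female HT, against 22.2 and 20.7 CPM in the male and female WT. The female HT was the lowest library, and the log2 fold change was 0.13 ± 0.18 (SE, adjusted p = 0.831 in edgeR), or -0.24 without the male HT.

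Otx2, a homeodomain transcription factor needed to form the choroid plexus, did not follow the other genes. It had 17.4 CPM in the male HT and 15.2 CPM in the female HT, against 19.6 and 15.2 CPM in the male and female WT. The females were level, and the log2 fold change was -0.08 ± 0.17 (SE, adjusted p = 0.902 in edgeR), or 0.11 without the male WT. Otx2 is also made by granule cell precursors of the developing cerebellum. Granule cell markers had negative log2 fold changes in 10 of 10 genes (median -0.42), as did 7394 of all 15117 tested genes. They summed to 3494 and 3916 CPM in the male and female HT, against 4513 and 5189 CPM in the male and female WT, with no marker at 0. Fat2, a cadherin, and Gabrd, a GABA receptor subunit, had log2 fold changes of -0.58 ± 0.10 and -0.56 ± 0.11 (SE, adjusted p = 0.130 and 0.136 in edgeR). Both passed with DESeq2 (adjusted p = 0.00407 and 0.0499 in DESeq2). It called 4 of the 10 granule cell markers, where it called 0.317% of all genes to which it gave an adjusted p. The part of granule cells in the Otx2 values was not tested. The antisense gene Otx2os1 shares exon sequence with Otx2 in the annotation and had 8 and 12 counts in the male and female HT, against 4 and 5 counts in the male and female WT.

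Over the 10 genes the log2 fold change was positive in 9, where 51.1% of all tested genes had a positive value, and the median was 0.48 beside 0.01 over all tested genes. The genes with both HT libraries above both WT libraries were Ttr, Enpp2, Folr1, Kcnj13 and Kcne2, 5 of 10, where 22.1% of all tested genes had this order. By counting error, the female HT lay clear of both WT libraries only for Folr1 and Enpp2. Without the male HT library, the median was 0.06, 6 of 10 were positive (49.2% of all genes tested in that fit), and 1 of 10, Folr1, had an unadjusted p under 0.05 with a higher HT level (1.03% of all genes tested in that fit). With each other library left out in turn, the median lay between 0.51 and 0.86. In a fit of 3 libraries, the genotype that keeps 2 of them alone sets the spread, and the lone library is assumed to vary like the others. Such a fit has no sex term. Within females alone, the median log2 ratio of HT over WT was 0.16 for the 10 genes.

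**Figure D2:**
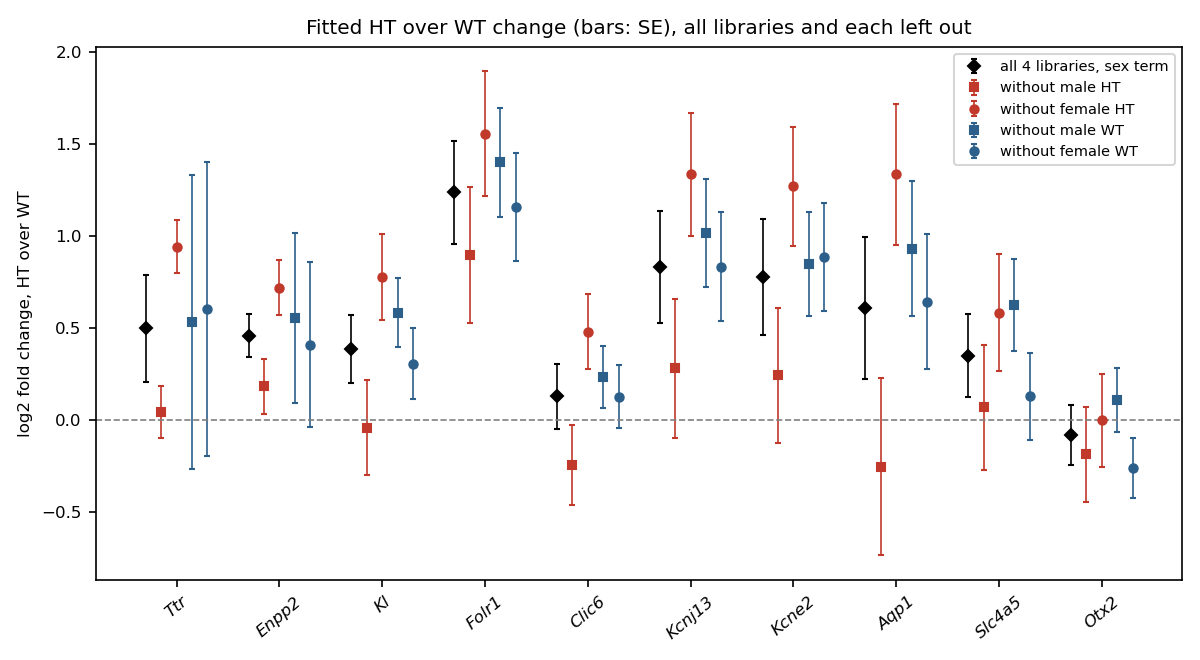
Fitted log2 fold change of HT over WT (y axis) with its SE for each choroid plexus gene, from all 4 libraries with a sex term (black) and with 1 library left out and genotype as the only term (red where an HT library is left out, blue where a WT library is, squares for males and circles for females). Leaving out the male HT gives the lowest value for every gene but Otx2, and Folr1 stays at 0.90.

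Within each sex the comparison rests on 1 library against 1 and has no replicate check. Among males, the HT over WT ratio ran from 0.892 for Otx2 to 2.73 for Folr1, with a median of 1.78, and its 95% counting interval lay above 1 for 9 of the 10 genes, as it did for 20.7% of all tested genes. Among females it ran from 0.874 for Clic6 to 2.02 for Folr1, with a median of 1.12, and the interval lay above 1 for 2 genes, Folr1 (1.42 to 2.91) and Enpp2 (1.16 to 1.23), a share near the 23.4% of all tested genes. The male ratio was 1.98 (1.95 to 2.02) for Ttr and the female ratio 1.01 (0.984 to 1.03). The intervals cover counting error only.

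**Figure D3:**
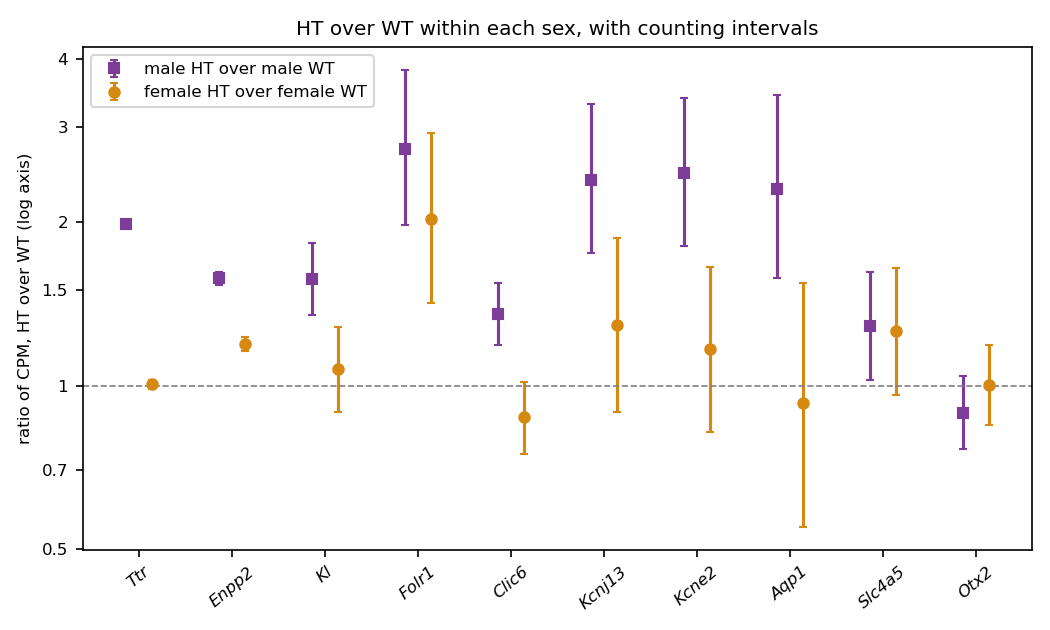
Ratio of CPM, HT over WT, for each choroid plexus gene (y axis, log scale) in males (purple squares) and females (orange circles), with exact 95% intervals for counting error. The male ratios of Ttr, Kcnj13, Kcne2 and Aqp1 lie between 1.98 and 2.46 and their female ratios between 0.928 and 1.29, while Folr1 is above 1 in both sexes and Slc4a5 is alike in both.

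Whether the HT over WT ratio differed by sex was tested in a fit with genotype and the product of genotype and sex. With 4 libraries that fit has no term for sex itself, so it takes the average level of males and females as equal, and its spread is the difference between males and females. The male log2 ratio exceeded the female one by 0.98 ± 0.47 (SE) for Ttr, by 1.12 ± 0.61 (SE) for Kcne2 and by 1.37 ± 0.91 (SE) for Aqp1. None of the 10 differences passed (adjusted p = 0.998 for each in edgeR), where 0.0198% of all tested genes did, and 0 of the 10 had an unadjusted p under 0.05, where 3.55% of all did. DESeq2 called 0 of the 10 as well. Since all 10 genes had a higher fitted level in males, these p-values say nothing on whether the ratios differed by sex, and a fit that also holds sex leaves no residual degree of freedom among 4 libraries.

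All 10 genes were higher in males than in females on the fitted scale, where 52.9% of all tested genes were, with log2 fold changes of male over female from 0.28 for Otx2 to 0.96 for Aqp1 and a median of 0.49. None passed over all genes (adjusted p = 0.994 for each in edgeR), where 0.0595% did, and 0 passed with DESeq2. At an unadjusted p under 0.05, Kl, Enpp2, Aqp1, Clic6 and Slc4a5 were higher in males, 5 of 10, where 2.08% of all tested genes were. For Kl, Clic6, Aqp1, Slc4a5 and Otx2 both male libraries were above both female libraries (13.8% of all tested genes). The male HT library enters this contrast too. Between the WT libraries alone, the male over female ratio of the summed CPM of the 10 genes was 1.01 (counting interval 0.989 to 1.02). Its interval lay above 1 for 4 genes (25.2% of all tested genes), below 1 for 1 and held 1 for the other 5. The ratio was 1.21 (1.02 to 1.44) for Kl, 1.41 (1.08 to 1.83) for Slc4a5, 1.29 (1.10 to 1.51) for Otx2, 1.10 (1.07 to 1.14) for Enpp2 and 0.952 (0.932 to 0.972) for Ttr.

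Ttr was used as a yardstick for the proportions of the other genes in each library. Kcnj13 had 4.38 and 3.93 counts per 1000 Ttr counts in the male and female HT, against 3.64 and 3.06 in the male and female WT. Kcne2 had 4.51 and 4.12 in the male and female HT, against 3.64 and 3.55 in the male and female WT. Aqp1 had 2.87 and 1.78 in the male and female HT, against 2.47 and 1.92 in the male and female WT. For these 3 of the 9 genes set against Ttr, the 95% counting intervals of the 4 libraries had values in common. Each rests on low counts with wide intervals, and Aqp1 still ranged 1.61-fold. Intervals with values in common do not test whether proportions are equal, and no such test was run.

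The other genes varied beyond counting error. Otx2 spread most, with 9.40 and 15.4 per 1000 Ttr counts in the male and female HT, against 20.9 and 15.4 in the male and female WT, a 2.22-fold range. Folr1 had 4.46 and 5.27 in the male and female HT, against 3.25 and 2.61 in the male and female WT, a 2.01-fold range in which both HT libraries were the higher. Clic6 ran the other way, with 16.2 and 18.3 in the male and female HT, against 23.7 and 21.0 in the male and female WT. Enpp2, Kl and Slc4a5 ranged 1.29-fold, 1.27-fold and 1.54-fold between libraries, with Enpp2 and Kl close to the 1.27-fold range of Kcne2 but resting on more counts.

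**Figure D4:**
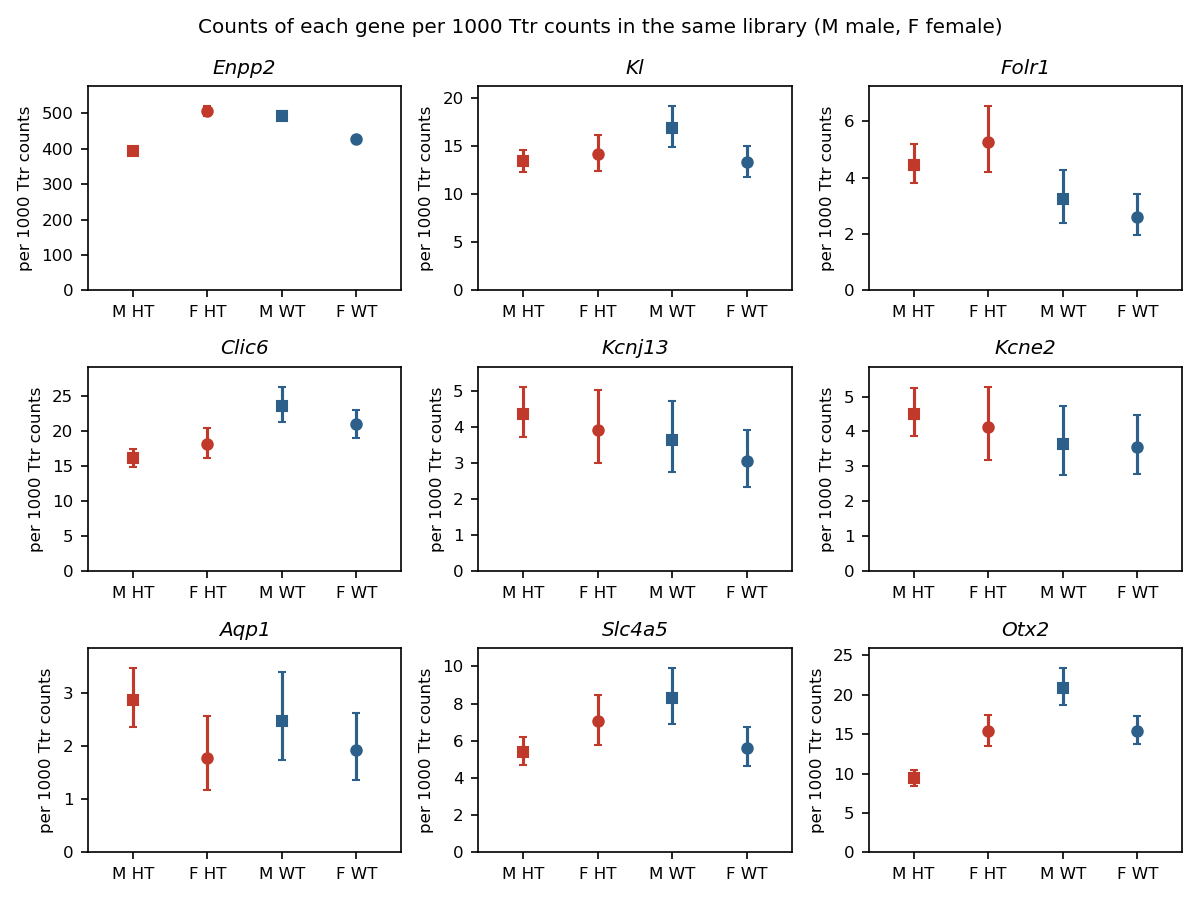
Counts of each gene per 1000 Ttr counts in the same library (y axis from 0), for male HT, female HT, male WT and female WT from left to right, with exact 95% intervals for counting error. Kcnj13, Kcne2 and Aqp1 have intervals with values in common, Otx2 is lowest in the male HT, and Folr1 is higher in both HT libraries.

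Per kilobase of the longest annotated transcript, Ttr was the most abundant of the 10 genes, with 1199 ± 518 CPM per kilobase in the HT and 809 ± 28.0 in the WT (mean ± SD, n = 2 each). Enpp2 followed with 199 ± 52.5 in the HT and 142 ± 9.83 in the WT. In the WT, Otx2 (6.70 ± 1.20) and Clic6 (5.70 ± 0.286) came next and did not differ beyond their spread. The range from Kl (2.82 ± 0.380) through Kcnj13 (2.52 ± 0.221), Folr1 (2.14 ± 0.252) and Kcne2 (2.04 ± 0.0372) to Slc4a5 (1.30 ± 0.311) and Aqp1 (0.800 ± 0.112) was gradual, and the steps from Kl to Kcnj13 and from Folr1 to Kcne2 were smaller than the larger SD of each pair. In the HT, Clic6 (6.40 ± 2.26) and Otx2 (6.30 ± 0.604) were level, and Folr1 (5.14 ± 1.66) came next on this scale.

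Promoters are shown for the 3 genes whose proportion to Ttr had counting intervals in common, and for Otx2, whose proportion varied most. Of the 10 genes, 6 matched the RefSeq promoter table (build GRCm38.p6), which holds 250 bases before and 50 after each start: Kcnj13, Kcne2, Aqp1, Kl, Slc4a5 and Otx2. Capitals mark 3 motifs, searched on both strands and read 5′ to 3′ on the strand of the gene: TAATCC, the core of bicoid-type homeodomain sites such as those of Otx2, TATAAA, and CCAAT. The windows are Kcnj13 at chr1:87394680-87394979 (minus strand), the first of 2 starts of Kcne2 at chr16:92292139-92292438 (plus strand), Aqp1 at chr6:55336049-55336348 (plus strand) and the third of 4 starts of Otx2 at chr14:48665060-48665359 (minus strand).
Kcnj13: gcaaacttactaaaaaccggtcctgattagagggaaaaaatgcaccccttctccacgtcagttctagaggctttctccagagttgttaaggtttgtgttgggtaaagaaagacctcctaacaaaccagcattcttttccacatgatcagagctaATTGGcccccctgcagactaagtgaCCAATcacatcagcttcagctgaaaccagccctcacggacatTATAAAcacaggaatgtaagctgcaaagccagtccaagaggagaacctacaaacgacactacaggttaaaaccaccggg
Kcne2: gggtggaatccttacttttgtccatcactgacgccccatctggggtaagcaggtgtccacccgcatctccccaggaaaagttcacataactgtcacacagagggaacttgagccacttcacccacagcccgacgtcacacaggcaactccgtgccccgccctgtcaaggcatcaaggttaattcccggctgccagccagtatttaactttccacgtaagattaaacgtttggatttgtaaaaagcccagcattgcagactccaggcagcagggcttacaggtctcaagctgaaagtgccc
Aqp1: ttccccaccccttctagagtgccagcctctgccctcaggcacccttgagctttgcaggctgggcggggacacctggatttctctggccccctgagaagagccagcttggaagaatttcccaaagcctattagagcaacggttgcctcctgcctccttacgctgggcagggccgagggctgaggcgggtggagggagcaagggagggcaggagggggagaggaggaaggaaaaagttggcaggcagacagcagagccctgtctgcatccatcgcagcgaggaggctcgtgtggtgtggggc
Otx2: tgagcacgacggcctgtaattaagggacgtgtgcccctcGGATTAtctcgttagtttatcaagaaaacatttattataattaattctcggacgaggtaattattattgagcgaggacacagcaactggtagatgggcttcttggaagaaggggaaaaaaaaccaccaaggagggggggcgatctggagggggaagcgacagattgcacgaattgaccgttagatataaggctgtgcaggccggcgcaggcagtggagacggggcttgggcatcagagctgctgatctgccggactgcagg

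Kcnj13 had TATAAA 29 bases before its start and CCAAT on both strands, 71 and 96 bases before it. The windows of Kcne2 and Aqp1 held none of the 3 motifs. The 6 genes have 10 windows in the table. TAATCC or its reverse complement was found in 7.06% of all 32851 windows and in 1 of the 10, the Otx2 window shown. TATAAA was found in 13.6% of all windows and in 3 of the 10, and CCAAT in 37.4% and in 2 of the 10. The windows of Kcnj13, Kcne2 and Aqp1 held 46.0%, 53.0% and 62.7% G and C. These matches describe the letters and no binding.

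Other genes of the same epithelium were read from lists that do not hold the 10 genes. These lists, like the 10 genes, were chosen with earlier results of these data known, so they are no independent check. Of 24 further choroid plexus genes, 22 had a positive log2 fold change (51.1% of all tested genes), with a median of 0.44. None of the 24 passed over all genes in edgeR, 6 had an unadjusted p under 0.05 with a higher HT level (5.22% of all tested genes), and DESeq2 called 0 of the 7 to which it gave an adjusted p. F5, coagulation factor V, had 6.95 and 3.20 CPM in the male and female HT, against 2.98 and 1.60 CPM in the male and female WT (log2 fold change 1.12 ± 0.30, SE, adjusted p = 0.207 in edgeR). Col8a1, a short-chain collagen, had 5.08 and 2.95 CPM in the male and female HT, against 1.34 and 1.79 CPM in the male and female WT (1.31 ± 0.38, SE, adjusted p = 0.223 in edgeR). Tmem72, a membrane protein, and Sostdc1, a secreted inhibitor of BMP and Wnt signals, had log2 fold changes of 1.25 ± 0.40 and 0.91 ± 0.31 (SE, adjusted p = 0.267 and 0.292 in edgeR). The highest library was the male HT for 18 of the 24 genes (25.7% of all tested genes). In fits with no sex term, the median of the list was 0.08 without the male HT and 0.74 without the male WT. Within females alone, the median log2 ratio of HT over WT was 0.31.

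A list of ion and water transport genes of the choroid plexus holds several that cerebellar neurons and glia also express. Of 11 genes, 8 had a positive log2 fold change (51.1% of all tested genes), with a median of 0.12. In edgeR or DESeq2 0 passed. At an unadjusted p under 0.05 in edgeR, 0 had a higher HT level (5.22% of all tested genes). Car12, a membrane-bound carbonic anhydrase, had 11.2 and 6.21 CPM in the male and female HT, against 6.26 and 5.92 CPM in the male and female WT (log2 fold change 0.47 ± 0.26, SE, adjusted p = 0.519 in edgeR). Slc13a4, a sulfate transporter, had 0.34 ± 0.20, and Slc12a2, the sodium, potassium and chloride cotransporter, had -0.19 ± 0.10 (log2 fold change ± SE, adjusted p = 0.537 and 0.506 in edgeR).

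The 12 partners of the 10 genes include a channel that Kcne2 joins, receptors of the autotaxin product and carriers of folate, retinol and thyroid hormone. Of these, 3 had a positive log2 fold change (51.1% of all tested genes) and 9 a negative one, with a median of -0.08. In edgeR 0 passed or had an unadjusted p under 0.05, and in DESeq2 0 passed. Slco1c1, a thyroid hormone transporter of the blood vessels and the choroid plexus, had 35.4 and 26.3 CPM in the male and female HT, against 33.8 and 49.5 CPM in the male and female WT. Lpar6 and Lpar1, receptors for lysophosphatidic acid, had log2 fold changes of -0.47 ± 0.30 and 0.09 ± 0.11, and Fgfr1, the receptor that klotho helps to bind its ligand, had 0.09 ± 0.10 (SE, adjusted p from 0.595 to 0.806 in edgeR).

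Markers of tissues beside the choroid plexus were read from the same fit. Of 14 meningeal fibroblast markers, 12 had a positive log2 fold change (51.1% of all tested genes), with a median of 0.25. They summed to 183 and 158 CPM in the male and female HT, against 131 and 156 CPM in the male and female WT. Aldh1a2, a retinoic acid synthesis enzyme of the meninges, had 16.8 and 15.3 CPM in the male and female HT, against 9.30 and 8.97 CPM in the male and female WT (0.81 ± 0.19, SE, adjusted p = 0.158 in edgeR), whereas Foxc1, a forkhead factor, had -0.76 ± 0.29 (SE, adjusted p = 0.344 in edgeR). Of 10 ependymal markers, 7 had a positive log2 fold change (51.1% of all tested genes), with a median of 0.12. They summed to 58.0 and 51.5 CPM in the male and female HT, against 44.5 and 55.3 CPM in the male and female WT. Foxj1, the factor of motile cilia, had 0.26 ± 0.15 and Mia, a small secreted protein, -0.47 ± 0.36 (log2 fold change ± SE, adjusted p = 0.544 and 0.673 in edgeR). No marker of either list was at 0 in all libraries. The highest library was the male HT for 10 of the 14 meningeal and 5 of the 10 ependymal markers (25.7% of all tested genes). The part of these tissues in the choroid plexus values was not tested.

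Endothelial markers had negative log2 fold changes in 11 of 11 genes (7394 of all 15117 tested genes), with a median of -0.48. They summed to 284 and 260 CPM in the male and female HT, against 306 and 439.6 CPM in the male and female WT, so that the female WT was the highest. Slco1a4, a transporter of the blood-brain barrier, had -0.85 ± 0.16 and Esam, an endothelial adhesion molecule, -0.55 ± 0.18 (log2 fold change ± SE, adjusted p = 0.136 and 0.282 in edgeR). DESeq2 called 1 of the 11, Slco1a4 (adjusted p = 0.0482 in DESeq2), where it called 0.317% of all genes with an adjusted p. Purkinje cell markers had negative log2 fold changes in 10 of 10 genes (7394 of all 15117 tested genes), with a median of -0.32. Rora, a nuclear receptor, and Dner, a Notch ligand, had -0.43 ± 0.10 and -0.34 ± 0.10 (log2 fold change ± SE, adjusted p = 0.171 and 0.236 in edgeR). Brainstem and midbrain markers had positive log2 fold changes in 8 of 10 genes (51.1% of all tested genes), with a median of 1.20. Which cells held the RNA of this list, cerebellar neurons among them or not, was not tested. Slc6a5 and Th, of the last list, passed in edgeR (log2 fold change 1.42 ± 0.18 and 1.15 ± 0.15, SE, adjusted p = 0.0473 for each). They also passed with DESeq2 (adjusted p = 0.00407 and 0.00131 in DESeq2). In edgeR they passed with DESeq2's size factors, library totals or no filter (adjusted p = 0.0212 for each with the size factors). They did not pass in edgeR with no sex term (adjusted p = 0.361 and 0.307) or with the stricter low-count filter (0.0919 for each). Their log2 fold changes were 1.02 and 1.04 without the male HT and 1.66 and 1.20 without the female HT. They were 1.98 and 1.49 without the male WT and 0.96 and 0.83 without the female WT.

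**Figure D5:**
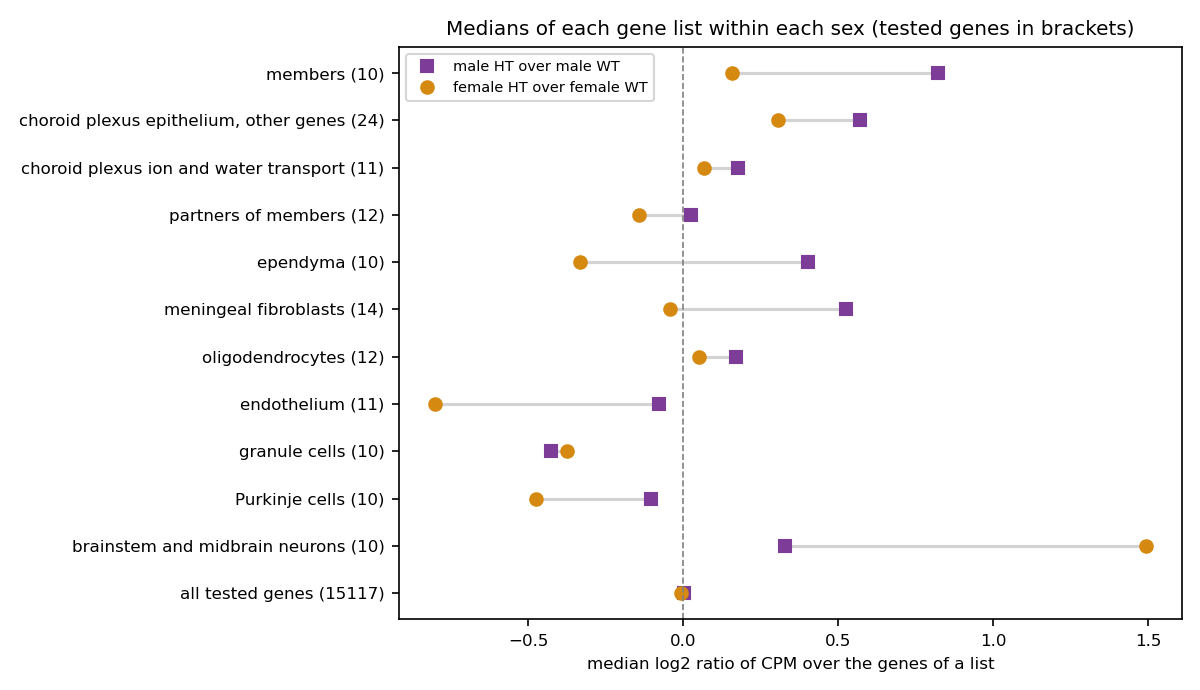
Median log2 ratio of CPM over the tested genes of each list, male HT over male WT (purple squares) and female HT over female WT (orange circles), with the number of tested genes in brackets; "members" are the 10 choroid plexus genes, and the red cell list, with 2 tested genes, is not drawn. The 10 genes stand at 0.82 in males and 0.16 in females, the 24 other epithelial genes at 0.57 and 0.31, and the median of all tested genes at 0.00 in males and -0.01 in females.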

How the data were processed

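Per the labels' protocols, messenger RNA from cerebella of 2 Arid1b heterozygous and 2 wild type mice was made into stranded libraries and read from 1 end over 100 bases. The authors deposited raw counts of reads per gene symbol, 1 column per library. The submitters' processing notes name mm9 as the build and list STAR, featureCounts, FastQC and edgeR. Their versions, settings and strand setting are not given in the sources used here. Without it, reads of a gene and its antisense partner cannot be told apart.

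From these counts, genes were filtered with filterByExpr by genotype (15117 of 24015 genes, 99.95% of counts), scaled by TMM (factors 0.999 to 1.00) and fitted with edgeR 4.0.16 in R 4.3.3 (robust quasi-likelihood, sex and genotype as terms, 1 residual degree of freedom, median prior degrees of freedom 10.6). P-values are two-sided. The Benjamini-Hochberg adjustment ran over every tested gene, with a threshold of 0.05. An SE is the log2 fold change divided by the square root of its F statistic. CPM is per library total, and 3 counts, the floor for a gene with none, come to 0.146 to 0.188 CPM. Ratios of 2 counts have exact Clopper-Pearson 95% intervals for counting error only. List medians within a sex use a prior count of 2. Transcript lengths and overlaps came from GENCODE vM21 (GRCm38), matched by symbol.

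The members and the 11 gene lists were chosen with earlier results of these data known. Named genes were the 10 members, Arid1b, in each list of other choroid plexus genes and partners up to 4 genes of smallest p, in each other list up to 2, and the 5 genes whose profile was nearest to the members' mean (mean of at least 1 CPM). Genes that overlap a member and those between Kcne2 and Clic6 were named by position, outside that rule. A gene that the rule names in the ion and water transport list is not reported here. Alternatives were DESeq2 1.42.0 in place of edgeR, scaling by its size factors or by library totals only, dropping the low-count filter or requiring 1 CPM in 2 or more libraries, leaving sex out of the fit, a threshold of 0.1, and leaving out each library. Fits with a library left out had genotype as the only term. The scripts were tested on simulated data.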

Additional observations from a re-analysis of the deposited data

Results flagged for a closer look

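The ratio of HT over WT ran in opposite directions in males and females for 3 of the 10 choroid plexus genes. It was 1.36 in males and 0.874 in females for Clic6, 2.31 in males and 0.928 in females for Aqp1, and 0.892 in males and 1.00 in females (just above 1) for Otx2. With 1 library of each genotype and sex the difference was not tested in a fit that also holds sex. The female intervals for counting error held 1 for all 3 genes, as did the male interval of Otx2.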

How the results depend on the processing

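Each genotype has 2 libraries, and the counting intervals of genes with few counts are wide. The sex term of the fit is also a block on the pairs of the same sex, and without it 0 genes passed. Beyond that block, no paired analysis was possible because the labels name no litter or day. The number of genes past the threshold between HT and WT, 3 over all genes, was 34 with DESeq2, 7 with DESeq2's size factors, 13 with library totals, 553 with no filter, 0 with the stricter filter, 0 with no sex term, 7 at an adjusted p of 0.1 and 0 (without the male HT) to 2730 (without the male WT) with a library left out. Of the 10 choroid plexus genes, 3 passed with no filter (Ttr, Folr1 and Enpp2), in a fit that called 553 of 18954 genes. In the other settings with all 4 libraries 0 passed. Their median log2 fold change lay between 0.058 and 0.86 with a library left out. Kl ran from -0.041 to 0.78, Clic6 from -0.24 to 0.48, Aqp1 from -0.25 to 1.335 (the low end without the male HT in each) and Otx2 from -0.26 to 0.11. The median of the other 24 epithelial genes ran from 0.084 to 0.74, with 2 called with no filter and 0 to 8 with a library left out. That of the ion transport genes ran from 0.022 to 0.16, with 1 called with no filter and 0 to 2 with a library left out. Of the partners, 0 were called with no filter. The summed level of the 10 genes was 1.83 times as high in the male HT as in the male WT, 1.56 times without Ttr and 1.94 times without Enpp2. In females the ratio was 1.06, 1.17 without Ttr and 1.01 without Enpp2. The cause was not tested, except that the sums differ by construction.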

Other observations

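Kcne2 and Clic6 are neighbours on mouse chromosome 16, with a few genes between them in the GENCODE annotation. The genes between them that passed the low-count filter did not share the high level of the male HT. Smim11, a small integral membrane protein gene, had 14.6 and 14.3 CPM in the male and female HT, against 14.8 and 17.6 CPM in the male and female WT. Rcan1, a regulator of calcineurin, had 55.0 and 57.2 CPM in the male and female HT, against 49.4 CPM in both the male and the female WT. The antisense gene 1700048M11Rik lay at or below 1.19 CPM. The log2 fold changes of HT over WT were -0.16 ± 0.18 for Smim11, 0.19 ± 0.12 for Rcan1 and -0.14 ± 0.55 for 1700048M11Rik (SE, adjusted p = 0.786, 0.593 and 0.952 in edgeR).

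Among 14222 genes of at least 1 CPM outside the 10, the profiles nearest to the mean of the 10 over the 4 libraries, by Euclidean distance of centred log2 CPM, were those of Dock2 (distance 0.0919), Glb1l2 (0.0942), Car12 (0.0996), 4930520O04Rik (0.122) and Samd3 (0.128). Dock2, a guanine nucleotide exchange factor of white blood cells, had 2.17 and 1.32 CPM in the male and female HT, against 1.28 and 1.07 CPM in the male and female WT. Glb1l2, a gene like that of beta-galactosidase, had 1.82 and 1.07 CPM in the male and female HT, against 1.09 and 0.873 CPM in the male and female WT. With 4 libraries such likeness is a description only.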
